A study of Bos taurus with 15 samples.

Results

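The exon junction complex and mRNA surveillance genes studied here are 10 genes picked by name: PYM1, MAGOH, MAGOHB, RBM8A, EIF4A3, CASC3, UPF1, UPF2, UPF3B and SMG1. All 10 were among the 24616 genes of the expression table, and all 10 were among the 8441 genes with enough counts to be tested. The group was put together around PYM1 because earlier results of these data had shown it higher after cooling in helium at 5.6 M than in fresh oocytes. That contrast is therefore given for PYM1 as a description. Calls of PYM1 in it are counted below for completeness, by each tool, and support nothing. RNA was sequenced from bovine oocytes in 15 libraries, 3 in each of 5 groups. Fresh oocytes were set beside oocytes vitrified, that is cooled to a glass without ice crystals, in liquid helium or in liquid nitrogen, each with 5.6 or 6.6 M cryoprotective agent. All oocytes, fresh ones included, came from in vitro maturation at 38.5 °C lasting 22 to 24 h, and hyaluronidase had been used to strip their cumulus cells. The labels name no strain, age or cryoprotectant, and the title of the series calls the oocytes immature.

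The exon junction complex is a protein clamp left on spliced mRNA just upstream of each joined pair of exons. Its core holds the RNA helicase EIF4A3, the partners MAGOH and RBM8A, which bind each other, and CASC3. MAGOHB is a near copy of MAGOH. PYM1 binds the MAGOH and RBM8A partners and helps to strip the complex from mRNA that is being translated. When translation stops with such a complex still downstream, UPF3B and UPF2 link it to the helicase UPF1. The kinase SMG1 phosphorylates UPF1, and nonsense-mediated decay of the mRNA follows. A fully grown oocyte transcribes little and lives on stored mRNA. In fly oocytes the MAGOH and RBM8A counterparts are also needed to place maternal mRNA.

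Library totals ranged from 1601519 to 8569618 counts, and depth went with the coolant. The 6 helium libraries and nitrogen 6.6 M library 3 held 6346848 counts or more, and the other 8 held 2822837 or fewer. All 10 oocyte markers found in the table, such as GDF9, BMP15 and ZP2, had counts in every group, and their sum was 5613 to 10159 CPM (counts per 1000000 counts of the library). The 22 cumulus and granulosa markers summed to 375 to 548 CPM in 14 libraries and to 679 CPM in helium 6.6 M library 2. STAR, HAS2 and PTGS2 made up most of that sum, and the defining granulosa genes FSHR and FOXL2 were at 0 in all libraries. Other cumulus markers differed by library. TIMP1 was at 6.68 to 129.6 CPM and TNFAIP6 at 6.62 to 30.8 CPM in 4 of 6 helium libraries, and both were highest in helium 6.6 M library 2. In helium 5.6 M library 4 and helium 6.6 M library 1 they were at most 0.936 CPM, and in the nitrogen and fresh libraries at most 2.52 CPM. VIM, INHA, KRT18 and LUM were also highest in helium 6.6 M library 2, at 16.8, 4.49, 4.05 and 3.76 CPM. The values are shares of a library, so a change in the RNA content of an oocyte cannot be seen in them. Whether the replicates are separate animals or cultures is not said in the labels. The p-values then speak only to how libraries vary, and that variation may be technical.

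The members spanned a wide range of abundance. Levels between genes were compared in FPKM, which scales counts by gene length and library total. MAGOH stood far above the rest at 2400.0 ± 579 FPKM (SD, n = 15 libraries) and ranked 33 of 8441 genes. RBM8A followed at 154 ± 32.7 FPKM, EIF4A3 at 109.8 ± 19.2 FPKM, UPF3B at 61.6 ± 9.31 and UPF2 at 47.8 ± 12.3. The lower members were MAGOHB at 34.2 ± 5.74 FPKM, CASC3 at 18.2 ± 5.51, PYM1 at 13.8 ± 5.79, SMG1 at 7.69 ± 2.02 and UPF1 at 2.19 ± 0.770. UPF1, the central helicase of the decay pathway, was thus the lowest of the 10 in mean FPKM and was higher than only 13.6% of the tested genes. This order depends on the gene lengths used, from 675 bases for MAGOH to 11473 for SMG1.

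Most neighbours in this order kept their places from library to library. MAGOH was above RBM8A, EIF4A3 above UPF3B, and SMG1 above UPF1 in 15 of 15 libraries. UPF3B was above UPF2, UPF2 above MAGOHB, and MAGOHB above CASC3 in 14 of 15. RBM8A was above EIF4A3 in 13 of 15, with an FPKM ratio of 0.918 to 2.18. CASC3 was above PYM1 in 13 of 15. PYM1 was below SMG1 in 3 of 3 fresh libraries and above it in 11 of 12 vitrified ones. PYM1 was picked against these fresh libraries, so nothing is read from this. It also rests on gene lengths of 1089 bases for PYM1 and 11473 for SMG1. In CPM by library total PYM1, at 6.02 to 26.8, was below SMG1, at 58.8 to 140.1, in every library. The coding sequences of MAGOH and MAGOHB are near-identical, and how reads that fit both genes were counted is not given in the sources used here. The ratio of 72.2 ± 23.7 (n = 15) between their FPKM values is uncertain for that reason.

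**Figure D1:**
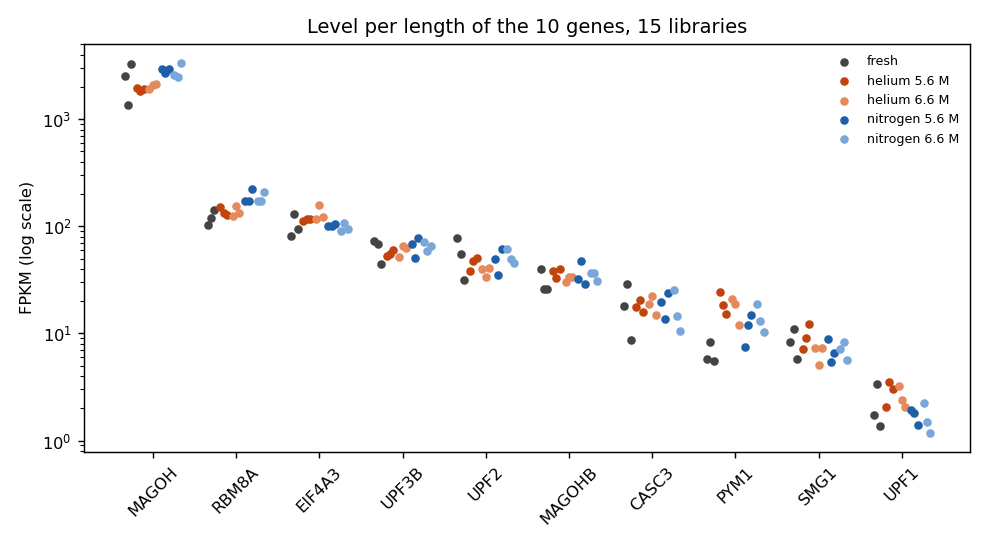
FPKM (log scale) of the 10 genes, 1 point per library, with the 5 groups in separate colours. MAGOH lies above every other member in all 15 libraries, UPF1 is lowest on average at 2.19 FPKM, and PYM1 has its 3 fresh libraries at 5.53 to 8.37 FPKM.

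PYM1, which helps to remove exon junction complexes, was lowest in fresh oocytes. Fresh libraries 1, 2 and 3 held 6.68, 7.54 and 7.16 CPM (here and below scaled by TMM, the trimmed mean of M-values). Helium 5.6 M libraries 3, 4 and 5 held 25.0, 19.6 and 17.3 CPM, and helium 6.6 M libraries 1, 2 and 3 held 22.8, 18.5 and 12.8 CPM. Nitrogen 5.6 M libraries 1, 2 and 3 held 8.05, 14.2 and 16.8 CPM, and nitrogen 6.6 M libraries 1, 2 and 3 held 20.8, 15 and 11.7 CPM. All 12 vitrified libraries thus lay above all 3 fresh ones on this scale. The margin was thin for nitrogen 5.6 M library 1, and on CPM by library total that library, at 8.14, fell below fresh library 2, at 9.12. The fresh values rest on 10, 15 and 17 counts. The 95% exact Clopper-Pearson interval of fresh library 2 by library total, 5.10 to 15 CPM, reaches into both nitrogen groups and past helium 6.6 M library 3, at 13.1 CPM on that scale. It covers counting error only.

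**Figure D2:**
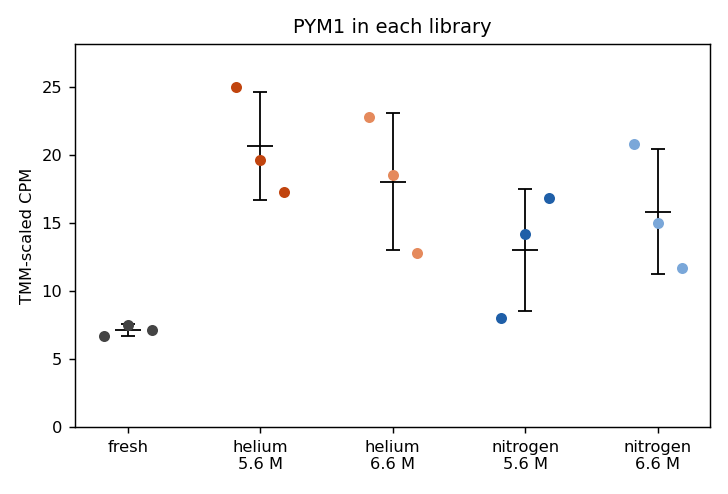
PYM1 in TMM-scaled CPM (linear axis from 0) in the 5 groups, with 1 point per library and the mean with SD as bars (n = 3 a group). The 3 fresh libraries sit between 6.68 and 7.54, and the 12 vitrified libraries between 8.05 and 25.0.

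Group means of PYM1 were 7.13 ± 0.432 CPM in fresh oocytes (SD, n = 3), 20.6 ± 3.96 with helium at 5.6 M and 18.0 ± 5.06 with helium at 6.6 M. In the nitrogen groups they were 13.0 ± 4.51 CPM at the lower concentration and 15.9 ± 4.62 at the higher one. The fitted level with helium at 5.6 M was 2.88-fold that of fresh oocytes, the value by which the gene was picked. The log2 fold change against fresh was 1.33 (SE 0.33) with helium at 6.6 M, which missed the 0.05 threshold of edgeR's quasi-likelihood test after adjustment by Benjamini-Hochberg (adjusted p = 0.0749). Without fresh library 2 it was 1.35 and PYM1 passed as higher (edgeR adjusted p = 0.0439), and it also passed by DESeq2 (adjusted p = 0.0185). It passed in 3 of 22 alternative settings in all, counting edgeR without a filter on low counts. When leaving out each library, edgeR adjusted p ranged from 0.0439 to 0.251. For nitrogen the log2 fold change was 0.84 (SE 0.36, edgeR adjusted p = 0.706) at the lower and 1.10 (SE 0.35, edgeR adjusted p = 0.32) at the higher concentration. All these comparisons use the same 3 fresh libraries, so the low fresh level enters each of them. For all vitrified groups together, which include the group that picked the gene, the log2 fold change was 1.20 (95% interval 0.58 to 1.82).

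Between the vitrified groups, PYM1 differed less. Helium libraries held 12.8 to 25.0 CPM and nitrogen libraries 8.05 to 20.8, so the coolants overlapped. The log2 difference of helium over nitrogen was 0.46 (95% interval 0.01 to 0.90, edgeR adjusted p = 0.298). The concentrations differed by 0.03 (interval -0.41 to 0.48), with 17.0 ± 4.49 CPM at 6.6 M and 16.8 ± 5.64 at 5.6 M (n = 6 each). Within the 8 libraries of low depth, PYM1 averaged 15 ± 4.65 CPM after nitrogen (n = 5) and 7.13 ± 0.432 in fresh oocytes (n = 3). These did not overlap by TMM. By library total they did, with nitrogen 5.6 M library 1 at 8.14 CPM and fresh library 2 at 9.12. The fresh libraries are those against which the gene was picked. Within the 7 of high depth, nitrogen 6.6 M library 3 held 11.7 CPM, below all 6 helium libraries.

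The genes whose levels followed PYM1 most closely over the 15 libraries were PEBP1, CFAP20, UCHL1, AURKB and SLBP. PEBP1, which encodes an inhibitor of RAF kinase, had a Pearson r of 0.904 and a Spearman rho of 0.825. The values were 0.900 and 0.857 for CFAP20, a cilium gene, and 0.894 and 0.829 for UCHL1, a ubiquitin hydrolase abundant in oocytes. They were 0.871 and 0.921 for the mitotic kinase gene AURKB and 0.869 and 0.904 for SLBP, which encodes the binding protein of histone mRNA stem-loops. These 5 were taken as the highest r of all tested genes with a symbol, and the points share group, depth and library preparation, so the values are a description. In each of the 5 the fresh group had the lowest mean, for example 444 CPM for CFAP20 against 679 to 849 in the vitrified groups.

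MAGOH and RBM8A, the partners that PYM1 binds, separated the coolants. In MAGOH, helium 5.6 M libraries 3, 4 and 5 held 1224, 1206 and 1326 CPM and helium 6.6 M libraries 1, 2 and 3 held 1291, 1268 and 1399. Nitrogen 5.6 M libraries 1, 2 and 3 held 1974, 1974 and 2065 CPM and nitrogen 6.6 M libraries 1, 2 and 3 held 1769.5, 1760.1 and 2353. Every helium library thus lay below every nitrogen library, while the fresh libraries at 1825, 764 and 2615 CPM spanned both coolants. RBM8A showed the same order, with 104, 96.4 and 98.8 CPM in helium 5.6 M libraries 3, 4 and 5 and 92.8, 105 and 96.7 in helium 6.6 M libraries 1, 2 and 3. Its levels were 126, 140.4 and 171 CPM in nitrogen 5.6 M libraries 1, 2 and 3 and 131, 136 and 159 in nitrogen 6.6 M libraries 1, 2 and 3. Fresh libraries 1, 2 and 3 held 82.1, 73.9 and 126 CPM, so fresh oocytes overlapped the helium range and touched the nitrogen one.

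For MAGOH the log2 difference of helium over nitrogen was -0.63 (SE 0.20, 95% interval -1.05 to -0.20), from 1983 ± 219 CPM in nitrogen to 1286 ± 70.7 in helium (SD, n = 6 each). It did not pass edgeR's test over all genes (adjusted p = 0.145). For RBM8A it was -0.54 (SE 0.14, interval -0.83 to -0.25), from 144 ± 17.4 to 99.0 ± 4.77 CPM, and did not pass either (edgeR adjusted p = 0.0731). Groups without overlap were found for 2 of the 10 members in this comparison, against 3.36% of all tested genes. By CPM per library total EIF4A3 was separated as well, in the opposite direction. The calls turned on fresh library 2, which is in neither coolant group but shares the spread of the fit. Without it both genes passed as lower in helium (edgeR adjusted p = 0.0064 for MAGOH and 0.0271 for RBM8A). RBM8A also passed without fresh library 3 (edgeR adjusted p = 0.0356). DESeq2 called RBM8A (adjusted p = 0.0122), and edgeR without a filter on low counts called MAGOH (adjusted p = 0.0308).

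Depth and coolant can be set apart here only through nitrogen 6.6 M library 3, which was as deep as the helium libraries. It held 2353 CPM of MAGOH and 159 of RBM8A, above all 6 helium libraries, as did the 5 shallower nitrogen libraries at 1909 ± 136 and 141 ± 17.6 CPM. A fit that also held a term for low or high depth gave -0.96 for MAGOH (SE 0.39, edgeR adjusted p = 0.273) and -0.74 for RBM8A (SE 0.27, edgeR adjusted p = 0.239), and it leans on this single library. The summed oocyte markers, in CPM by library total, also moved with the coolant, at 8345 to 10159 in helium, 6413 to 8462 in nitrogen and 5613 to 10118 in fresh libraries. Their part in the result was not tested. The cumulus markers TIMP1 and TNFAIP6 were higher in 4 of the 6 helium libraries than in any nitrogen library. In the other 2, helium 5.6 M library 4 and helium 6.6 M library 1, they were at or near 0, with MAGOH at 1206 and 1291 CPM and RBM8A at 96.4 and 92.8, below all nitrogen libraries. Other markers of the same list went different ways in these 2 libraries. SERPINE2 was at 29.8 and 30.5 CPM, against at most 28.8 in nitrogen libraries. VCAN was at 25.1 and 31.8 CPM (12.3 to 46.7 in nitrogen) and HAS2 at 96.4 and 92.5 (99.0 to 122). The sum over the 22 cumulus and granulosa markers was 402 and 375 CPM, against 396 to 433 in nitrogen libraries. The part of cumulus RNA in the separation was not tested. The separation did not follow concentration, with log2 differences of 0.02 (interval -0.40 to 0.44) for MAGOH and -0.03 (interval -0.32 to 0.26) for RBM8A between 6.6 and 5.6 M.

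EIF4A3, the helicase that clamps the complex onto RNA, was ordered differently. It held 129, 162 and 169 CPM in fresh libraries 1, 2 and 3. Helium 5.6 M libraries held 155, 168 and 180.2 CPM and helium 6.6 M libraries 175, 215 and 179.9, while the 6 nitrogen libraries ranged from 136 to 169. All 3 helium 6.6 M libraries lay above all fresh ones, with a log2 fold change of 0.31 (SE 0.17, edgeR adjusted p = 0.414). The highest of them was library 2, the one with the most cumulus and granulosa marker RNA, and without it the value was 0.21 (SE 0.19). Whether that RNA contributes to EIF4A3 was not tested.

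Ratios within a library do not depend on how libraries are scaled. The FPKM ratio of MAGOH to RBM8A was 14.4 ± 1.19 in helium and 15.3 ± 1.43 in nitrogen libraries (SD, n = 6 each), with ranges of 12.9 to 16.0 and 13.3 to 17.3 that overlapped. The fresh ratio ranged from 11.4 to 24.5. The ratio of MAGOH to EIF4A3 was 13.1 to 17.6 in helium and 23.0 to 35.6 in nitrogen, and that of RBM8A to EIF4A3 was 0.979 to 1.36 in helium and 1.62 to 2.18 in nitrogen. Neither of these ranges overlapped between coolants, so the proportion of the partners to the helicase separated the coolants whatever the scaling. These ratios pair genes already seen to differ in opposite directions between the same libraries, so they are no separate support. No share over all gene pairs was computed, and depth went with the coolant. Over the 15 libraries MAGOH and RBM8A had a Pearson r of 0.775 and a Spearman rho of 0.711 on the log scale, whereas RBM8A and EIF4A3 had -0.107 and -0.125. These points share group and depth and are a description.

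**Figure D3:**
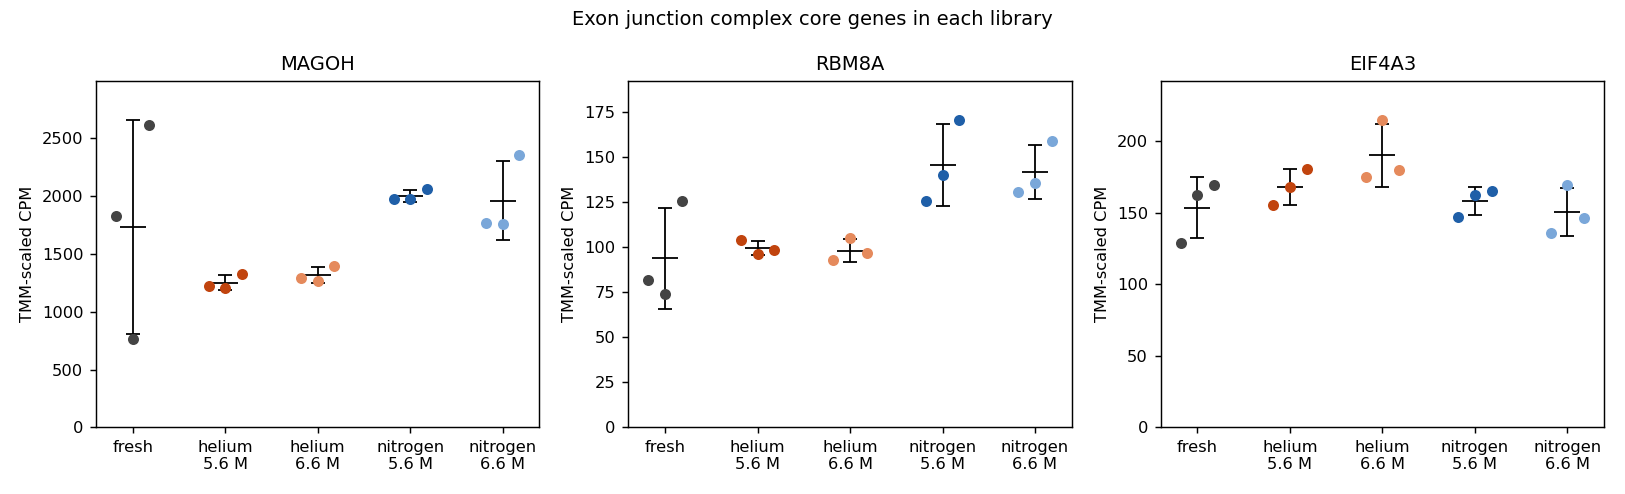
MAGOH, RBM8A and EIF4A3 in TMM-scaled CPM (linear axes from 0) in the 5 groups, with 1 point per library and the mean with SD as bars (n = 3 a group). For MAGOH and RBM8A all 6 helium points lie below all 6 nitrogen points, and the fresh points of MAGOH spread from 764 to 2615.

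Against fresh oocytes the values of these partners depended on the fresh libraries. For MAGOH the log2 fold change in the helium groups was -0.47 (SE 0.29, edgeR adjusted p = 0.482) at 5.6 M and -0.40 (SE 0.29, edgeR adjusted p = 0.56) at 6.6 M. Without fresh library 2, its lowest library, the values were -0.83 and -0.77 and passed (edgeR adjusted p = 0.0194 and 0.0202). Without fresh library 3, its highest, they were -0.05 and 0.02. With nitrogen they were 0.21 and 0.18 at 5.6 and 6.6 M, turned to -0.16 and -0.18 without fresh library 2, and did not pass in either case. The 3 fresh oocyte libraries therefore do not place MAGOH above or below the vitrified ones. RBM8A stood 1.54-fold higher with nitrogen at 5.6 M (95% interval 1.15 to 2.06) and 1.51-fold higher at 6.6 M (1.13 to 2.02), neither past the threshold (edgeR adjusted p = 0.513 and 0.373). With helium its log2 fold changes were 0.08 and 0.05 at 5.6 and 6.6 M.

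For MAGOHB and CASC3, the remaining core genes, no difference passed in any comparison. MAGOHB, the near copy of MAGOH, ranged from 25.6 to 50.8 CPM in fresh, 35.6 to 49.3 in helium and 35.4 to 60.5 in nitrogen libraries. Its log2 difference of helium over nitrogen was -0.13 (95% interval -0.49 to 0.22), and all groups overlapped. CASC3, the core subunit most tied to decay in the cytoplasm, ranged from 40.0 to 93.5 CPM in fresh, 56.1 to 78.5 in helium and 42.8 to 99.1 in nitrogen libraries. Its log2 fold change of vitrified over fresh was 0.02, with an interval of -0.49 to 0.53, so changes of up to 1.44-fold lie within it.

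Among the decay factors, UPF1 was too scarce for firm statements, with 9 to 95 counts per library. Fresh libraries 1, 2 and 3 held 6.68, 10.1 and 5.90 CPM. The 6 helium libraries ranged from 6.96 to 12.3 CPM and the 6 nitrogen ones from 4.32 to 8.13, with overlap. The log2 difference of helium over nitrogen was 0.65 (95% interval 0.15 to 1.15, edgeR adjusted p = 0.201), opposite in sign to MAGOH and RBM8A. Nitrogen 6.6 M library 3, the deep nitrogen library, had the lowest UPF1 level of all at 4.32 CPM. Against fresh, all vitrified groups together differed by 0.01 (interval -0.63 to 0.64).

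UPF2, the adaptor between UPF1 and UPF3B, ranged from 145 to 318 CPM in fresh libraries, the highest being library 1. Helium 5.6 M libraries held 137 to 203 CPM, helium 6.6 M 116 to 154, nitrogen 5.6 M 147 to 244 and nitrogen 6.6 M 179 to 237. Its lowest fitted value was -0.58 with helium at 6.6 M against fresh (SE 0.26, edgeR adjusted p = 0.289), with groups that overlapped. UPF3B, which binds the junction complex, was steadier, at 69.2 ± 14.8 CPM in fresh, 62.8 ± 6.06 in helium and 75.0 ± 9.63 in nitrogen oocytes (SD, n = 3, 6 and 6). Its log2 difference of helium over nitrogen was -0.26 (interval -0.54 to 0.03). SMG1, the kinase of UPF1, held 94.8 ± 13.9 CPM in fresh oocytes and 86.7 ± 23.8 in vitrified ones (n = 3 and 12). Its extremes were both in helium, at 145 CPM in a 5.6 M library and 53.0 in 6.6 M library 2, and its difference between 6.6 and 5.6 M was -0.28 (interval -0.65 to 0.09).

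**Figure D4:**
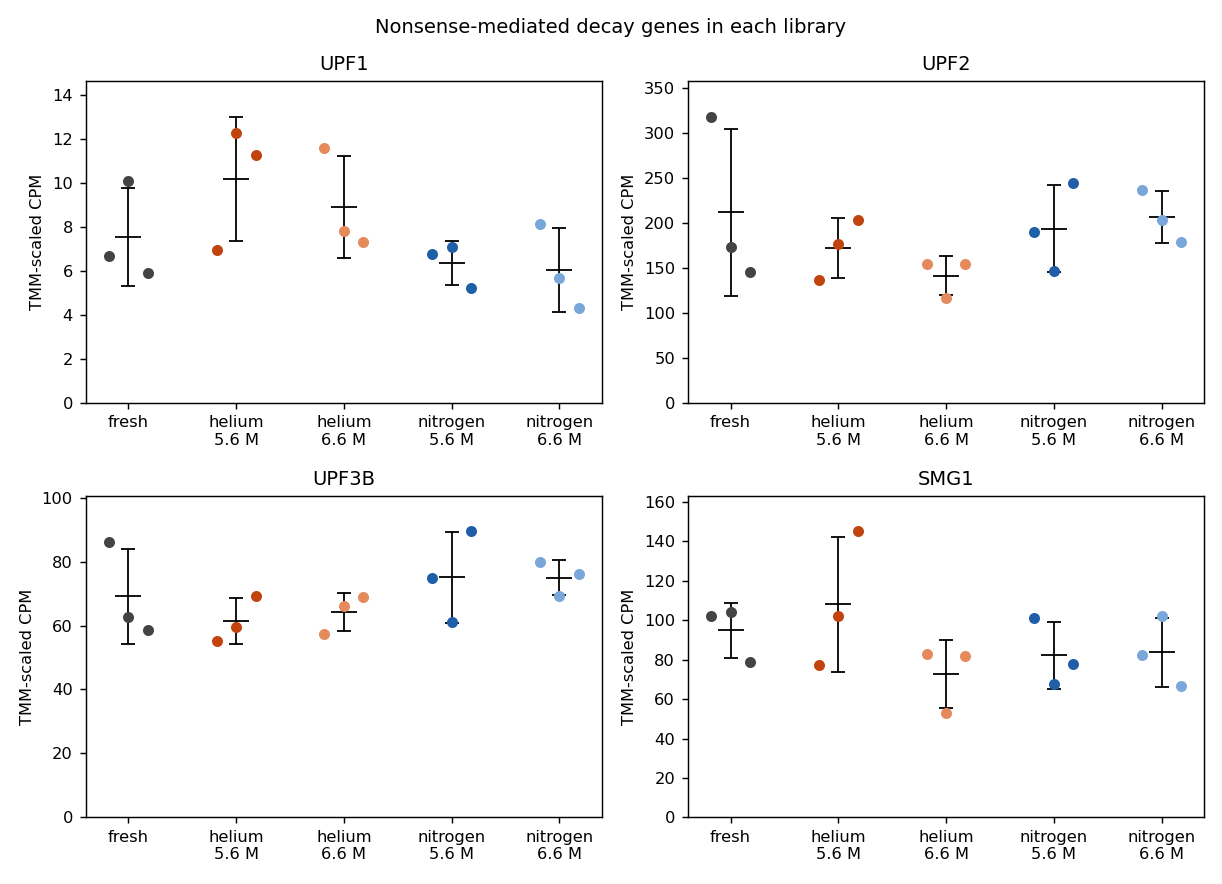
UPF1, UPF2, UPF3B and SMG1 in TMM-scaled CPM (linear axes from 0) in the 5 groups, with 1 point per library and the mean with SD as bars (n = 3 a group). Each gene's groups overlap the fresh libraries, and UPF1 lies between 4.32 and 12.3 throughout.

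Counted over all 10 members, few calls were made. By edgeR, 1 of 10 (PYM1, the gene that picked the list) passed with helium at 5.6 M against fresh, where 0.474% of all tested genes did, and nothing is read from this count. The numbers were 0 of 10 with helium at 6.6 M (0.628% of all genes) and 0 of 10 after nitrogen, both at 5.6 M (0.0118%) and at 6.6 M (0.0474%). They were also 0 of 10 for all vitrified against fresh (0.509% of all genes), helium against nitrogen (0.663%) and 6.6 against 5.6 M (0% of all genes). DESeq2 also called PYM1 with helium at 5.6 M (2.48% of all genes), from which again nothing is read. It called PYM1 with helium at 6.6 M (2.88% of all genes) and over all vitrified groups (2.26%), which include the group that picked the gene. Between coolants DESeq2 called RBM8A (2.77% of all genes), and in the other 3 comparisons it called 0 members.

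At an unadjusted p under 0.05 edgeR had 1 member with helium at 5.6 M against fresh (14.1% of all genes) and 2, PYM1 and UPF2, with helium at 6.6 M (15.4%). It had 2, PYM1 and RBM8A, with nitrogen at 5.6 M (6.74% of all genes) and the same 2 with nitrogen at 6.6 M (8.23%). It had 1 over all vitrified groups (13.6% of all genes), 4 between coolants (16.0%) and 0 between concentrations (2.24%). Those between coolants were MAGOH, PYM1, RBM8A and UPF1. Groups without overlap were seen for 1 member with helium at 5.6 M against fresh (18.1% of all genes), 2 with helium at 6.6 M (16.3%), 1 with nitrogen at 5.6 M (9.26%) and 2 at 6.6 M (9.31%). PYM1 was among them in each case, with EIF4A3 added at helium 6.6 M and RBM8A at nitrogen 6.6 M. Over all vitrified against fresh PYM1 was the only such member (2.03% of all genes), and between concentrations there was none (0.0711%). The fresh libraries against which PYM1 was picked enter each comparison with fresh, so nothing is read from its place in these counts. By library total it overlapped fresh with nitrogen at 5.6 M and over all vitrified groups.

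The median log2 fold change of the 10 members was 0.01 over all vitrified groups, 0.10 and -0.01 with helium at 5.6 and 6.6 M and 0.13 and 0.05 with nitrogen at 5.6 and 6.6 M. Over all 8441 genes these medians were -0.03, 0.00, -0.02, -0.05 and -0.03. Between coolants the members' median was -0.09 (0.03 over all genes) and between concentrations -0.06 (0.01 over all genes). All these medians include PYM1.

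**Figure D5:**
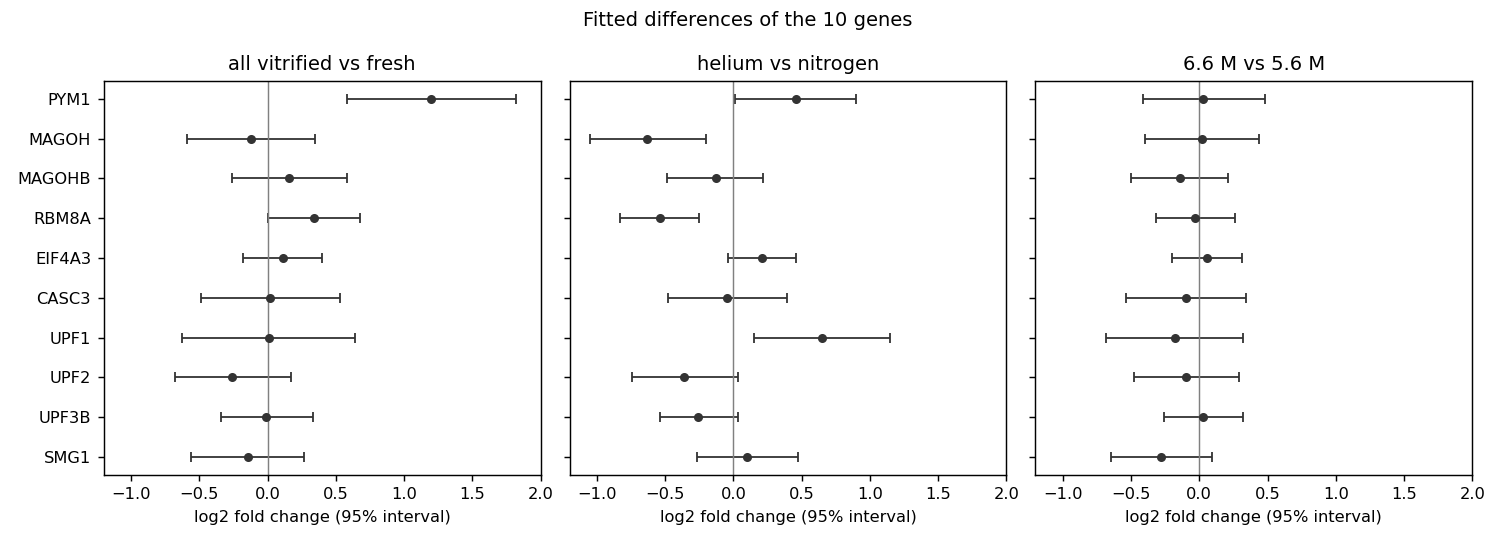
Fitted log2 fold changes (points) with 95% intervals (bars) of the 10 genes for all vitrified against fresh, helium against nitrogen and 6.6 against 5.6 M. PYM1 lies at 1.20 on the left, MAGOH and RBM8A at -0.63 and -0.54 in the middle, and all 10 intervals on the right include 0.

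Further genes of the same pathways gave 0 calls. Of 72 genes listed, 69 were in the table and 60 were tested, and SMG5, SMG9 and DHX34 were among those with too few counts. In each of the 7 comparisons 0 of 60 passed by edgeR and 0 by DESeq2. At an unadjusted p under 0.05 edgeR had 5 of the 60 with helium at 5.6 M against fresh (14.1% of all genes) and 5 at 6.6 M (15.4%). After nitrogen it had 5 at the lower (6.74% of all genes) and 3 at the higher concentration (8.23%). It had 6 for all vitrified against fresh (13.6% of all genes), 6 between coolants (16.0%) and 0 between concentrations (2.24%). The medians over the 60 were 0.01 for vitrified against fresh and 0.04 between coolants. A list of 16 genes held factors that deposit or join the complex and others of splicing, cap binding and mRNA export. The median of this list for vitrified against fresh was 0.02. Its largest value was that of PRPF8, the central spliceosome protein gene, at 0.42 (SE 0.19, edgeR adjusted p = 0.352), from 61.2 ± 21.7 to 83.1 ± 14.9 CPM.

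The 15 tested decay factors beyond the members had a median of 0.06 between vitrified and fresh oocytes, with PPP2R1A, a scaffold subunit of protein phosphatase 2A, at -0.62 (SE 0.27, edgeR adjusted p = 0.312). Between coolants their median was 0.24, with 12 of 15 above 0. All genes had a median of 0.03 there, with 4509 of 8441 above 0. The 7 genes of translation termination and mRNA binding had a median of -0.06 for vitrified against fresh, the largest value being -0.43 for the initiation scaffold gene EIF4G1. The 10 tested genes that deal with stalled ribosomes had a median of 0.01, with GTPBP2, which helps to rescue stalled ribosomes, at -0.49. Transcripts known from other mammalian cells as targets of nonsense-mediated decay, 12 tested of 15 listed, had a median of -0.02. Of these, 6 of 12 were above 0 (3923 of 8441 over all genes). Their largest value was -0.49 for TBL2 (SE 0.39, edgeR adjusted p = 0.636).

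In the gene models used for the counts, on the UMD3.1 build, PYM1 (ENSBTAG00000031146) spans 57703547 to 57724145 on chromosome 5, where MAGOHB also lies, at 99447175 to 99457656. MAGOH spans 93571582 to 93580843 and RBM8A 21553392 to 21555392, both on chromosome 3. EIF4A3 spans 53085463 to 53097208 and CASC3 41084252 to 41106062, both on chromosome 19. UPF1 lies on chromosome 7 at 4268129 to 4299794, UPF2 on chromosome 13 at 12363666 to 12452723, UPF3B on chromosome X at 4015335 to 4032280 and SMG1 on chromosome 25 at 16556655 to 16625702. The length behind the FPKM values ranged from 675 bases for MAGOH to 11473 for SMG1.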

How the data were processed

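Per the file headers, the authors deposited raw counts per gene and library together with FPKM values. FPKM was deposited as counts scaled by gene length and library total, and the length computed back from both columns was constant for each member. The tools HISAT2 2.0.4 and StringTie 1.3.0 and the build UMD3.1 are named, per the submitters' processing notes, with no roles. The sources used here do not give read filters or strand handling. Per the labels' protocols, cDNA was amplified from single cells.

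The members and lists were chosen with earlier results of these data known. Groups and replicate numbers came from the labels, and helium 5.6 M libraries carry the numbers 3, 4 and 5. Counts of the 8441 genes that passed filterByExpr were scaled by TMM and fitted in 1 robust quasi-likelihood model of 5 groups, without a replicate block (edgeR 4.0.16, R 4.3.3). Adjustment was by Benjamini-Hochberg over these genes at a threshold of 0.05, for 7 comparisons. Log CPM for correlations used a prior count of 2. All members and, of the pathway lists, the genes past the threshold and the largest change in each role group are named. The script was tested on simulated data. Alternatives were DESeq2 1.42.0, RLE factors, no filter, thinning to 1601519 counts, depth class, 2 groups only, a replicate block and leaving out each library. No library was a copy of another: between those of a group, chi-square divided by its degrees of freedom was 5.52 or more. Same-number deviations correlated over 0.1 in all 3 pairs only for helium 6.6 M and fresh (0.147, 0.306 and 0.227).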

Additional observations from a re-analysis of the deposited data

How the results depend on the processing

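The number of members called by edgeR moved only through PYM1, MAGOH and RBM8A. With helium at 5.6 M against fresh it was 1, and 0 when thinned to the smallest total, when a depth term was added and with 2 groups only, and 0 to 2 when leaving out each library. PYM1 was picked on that comparison, so nothing is read from its calls there. With helium at 6.6 M it was 0, and 1 without a filter or with DESeq2, and 0 to 2 when leaving out each library. Over all vitrified groups it was 0, and 1 without a filter or with DESeq2. Between coolants it was 0, and 1 without a filter or with DESeq2, and 0 to 2 when leaving out each library. In the nitrogen comparisons with fresh and between concentrations it was 0 throughout. The depth term leans on nitrogen 6.6 M library 3. With the replicate number as a block it was 0 with helium at 6.6 M and in both nitrogen comparisons with fresh, as without the block. Helium 5.6 M shares only the number 3 with fresh, and its numbers 4 and 5 occur in no other group. Block fits of all 5 groups served the comparisons between coolants, between concentrations and over all vitrified groups. In these, helium 5.6 M rested on library 3 alone, so their calls are not read. Over all genes the block did move the calls. With helium at 6.6 M, 53 genes were called in the fit of 5 groups, 2 in a fit of the 2 groups alone and 17 in that fit with the block. The log2 difference of PYM1 between concentrations, 0.03, turned to -0.05 after thinning and -0.20 with the replicate block, and ranged from -0.10 to 0.14 when leaving out each library. Scaling by library total, an alternative chosen after seeing the data, left 1 member without overlap with helium at 6.6 M (2 by TMM) and 0 over all vitrified groups (1 by TMM). With nitrogen at 5.6 M against fresh, the member without overlap was PYM1 by TMM and RBM8A by library total. RBM8A was there at most 106 CPM in fresh and at least 127 in nitrogen 5.6 M libraries. Of 1500 recomputed log2 fold changes of members, 106 changed sign. The number of all genes called moved more, for example between 1 and 431 with helium at 5.6 M when leaving out each library (40 in all). Counts of 10 to 17 for PYM1 in fresh libraries and 9 to 95 for UPF1 limit what can be seen. The cause of these shifts was not tested.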
